A study of Drosophila melanogaster with 8 samples.

Results

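The larval gut digestive enzyme genes of Drosophila melanogaster described here are 37 genes that encode secreted proteases and carbohydrate-digesting enzymes. They were chosen by gene symbol: 16 *Jon* genes, 11 trypsin genes with Greek letter names (*alphaTry* to *lambdaTry*), 8 *Mal-A* genes and the amylase genes *Amy-p* and *Amy-d*. The expression tables hold 17122 genes with a FlyBase identifier, and 33 of the 37 genes have values in both the larval and the testis table. The larval values cover 34 of the genes and the testis values 36. In larvae *alphaTry*, *gammaTry* and *deltaTry* were not analysed, and in testes *Jon66Ci* was not analysed.

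These enzymes are made by the enterocytes of the midgut and released into the gut lumen. Amylases cut starch into maltose and short glucose chains, and maltases then free glucose from them. Trypsins cut dietary protein after lysine and arginine, while the Jonah (*Jon*) genes encode chymotrypsin-like serine proteases of the larval and adult gut. In flies, expression of amylases and of several maltases is known to respond to dietary sugar.

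The study asked what loss of Tgs1, the enzyme that makes the trimethylguanosine cap of spliceosomal snRNAs, does to gene expression and splicing. Poly(A)-enriched RNA was sequenced from second instar larvae and from adult testes, with 2 libraries in each of 4 groups. Each larval library came from about 80 larvae and each testis library from about 100 testes by the labels, which the study's methods give as pairs, and flies were kept at 25 °C. The wild-type larvae carried tgs12-4, a chromosome from the same mutagenesis with intact *tgs1* and *moi* coding regions, and the mutant larvae carried tgs12-3, a Cas9-made frameshift allele that is lethal at this stage. By the study's text the mutant larvae were homozygous and had heterozygous mothers. The study reports a near normal level of the cap in such larvae, so the larval comparison is not one of strong cap loss. The labels give the testes called wild type as bam>tgs1;tgs1hypo and those called tgs1hypo as bam>moi;tgs1hypo, so by the labels both testis groups carry the partial loss-of-function combination of *moi* and *tgs1* alleles and differ in the cDNA that the germline driver bam expresses. The study's text differs from these labels. It describes the sequenced testes as wild type and tgs1hypo, and it names bam-driven *tgs1* and *moi* only as rescue samples in staining and PCR assays. Which description holds for these libraries was not tested. The names wild type and tgs1hypo are those of the sample titles. No sex is given for the larvae, and whole larvae hold gut beside all other tissues, so fewer gut cells and less RNA per gut cell cannot be told apart in any value below.

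The gene *moi*, whose mRNA also carries the Tgs1 coding region, was at 10.1 and 11.4 FPKM in wild-type testes and at 3.81 and 2.71 FPKM in tgs1hypo testes (log2 change -1.47, limma adjusted p = 0.00039). The lower values stand in the group labelled as driving the *moi* cDNA. Reads from the driven cDNAs may count towards this gene, and their part was not tested. In larvae *moi* was at 4.64 and 7.42 FPKM in wild type against 6.41 and 6.85 FPKM in tgs12-3, where a frameshift need not lower the level. FPKM counts sequenced fragments per kilobase of transcript, scaled to the mapped fragments of the library. Some larval libraries stood apart. Mitochondrial genes held 29.0% of the FPKM of named genes in wild-type replicate 1 and 13.9% to 15.2% in the other larval libraries. The salivary glue genes *Sgs3*, *Sgs7* and *Sgs8*, which mark late larval glands, added up to 132 FPKM in tgs12-3 replicate 2 and to 0.0291 to 0.343 FPKM in the other 3, and 5 fat body genes to 475 FPKM against 0.305 to 52.9 FPKM. The enterocyte markers *mex1*, *Myo31DF*, *nub*, *Tsp2A*, *mesh*, *Ssk* and *GATAe* were all present, with sums of 309 and 391 FPKM in wild-type larvae and 391 and 315 FPKM in tgs12-3 larvae, so these sums overlapped between genotypes.

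Most of the genes lie in arrays on the chromosomes. All 8 *Mal-A* genes lie within 24298 bases of chromosome 2R (8449664 to 8473961, annotation build BDGP6.54) with no other gene inside, and all 11 trypsin genes within 20698 bases (11336840 to 11357537). The amylase genes sit on opposite strands of 2R between 17118636 and 17126369. The *Jon* genes form a group of 3 on 2L, *Jon25Bi* to *Jon25Biii* (4949941 to 4955144), groups of 4 and 2 on 3L, and groups of 3 and 2 on 3R, with *Jon44E* on 2R and *Jon74E* on 3L alone. Every gene is protein-coding, and 24 of the 37 (64.9%) have no intron, against 15.3% of all protein-coding genes in the annotation. The trypsin genes and amylase genes all lack introns and the *Mal-A* genes all have them. Several members are close copies of each other (*Amy-p* and *Amy-d*, *Jon99Cii* and *Jon99Ciii*, *Jon99Fi* and *Jon99Fii*, *alphaTry* to *deltaTry*), and how the authors' counting shared reads between copies is not given in the sources used here, so the split within such a group is uncertain.

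In larvae the digestive enzyme genes were among the most abundant mRNAs. The 34 genes with larval values added up to 5.78% and 9.17% of the FPKM of genes outside the mitochondrial genome in wild-type replicates 1 and 2 and to 6.53% and 9.01% in tgs12-3 replicates 1 and 2. Of the 50 genes with the highest mean over the 4 libraries, 7 were members. The *Jon* genes made up 88.6% to 93.2% of the summed members in each library. Levels spanned a wide range within families: mean values went from 65.0 to 7090.3 FPKM among the *Jon* genes, from 12.5 to 1680.1 FPKM among the 8 trypsin genes, and from 0.127 to 129 FPKM among the *Mal-A* genes.

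**Figure D1:**
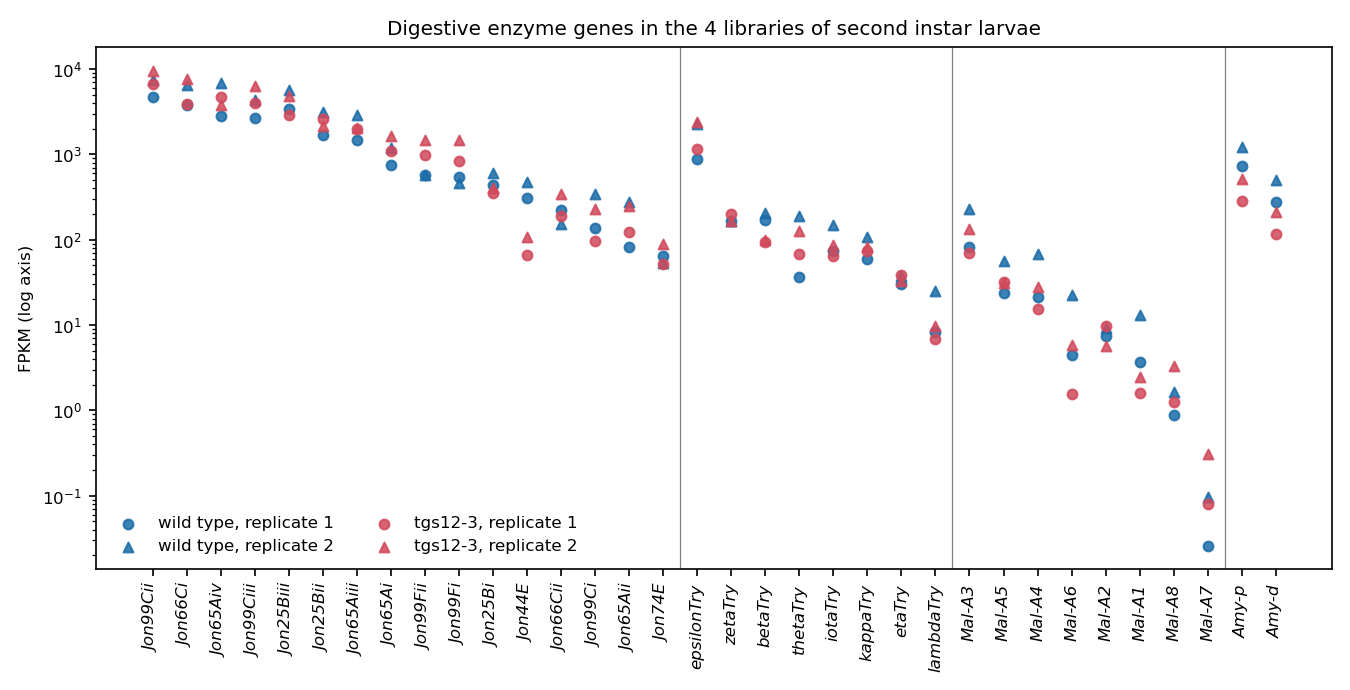
FPKM (log axis) of the 34 digestive enzyme genes in the 4 larval libraries, grouped as *Jon*, trypsin, *Mal-A* and *Amy* genes and ordered by mean level within each group. Blue marks wild type and red tgs12-3, circles replicate 1 and triangles replicate 2; *Jon44E*, *Amy-p* and *Amy-d* have both red points below both blue points, and *Jon99Fi* and *Jon99Fii* both above.

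*Jon99Cii* had the highest mean of the members and ranked 2nd of all named genes, with 4667 and 7542 FPKM in wild-type replicates 1 and 2 and 6595 and 9557 FPKM in tgs12-3 replicates 1 and 2. Its neighbour *Jon99Ciii* had 2690.3 and 4338 FPKM in wild type against 4034 and 6259.8 FPKM in tgs12-3. The third gene of that array, *Jon99Ci*, was far lower in the same libraries, at 136 and 342 FPKM and at 97.5 and 232 FPKM. For each of these genes the genotypes overlapped, and replicate 2 was above replicate 1 in both genotypes.

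*Jon66Ci* had 3771 and 6515 FPKM in wild type against 3899 and 7593 FPKM in tgs12-3. *Jon65Aiv* had 2808 and 6829 FPKM in wild type against 4679 and 3749 FPKM in tgs12-3, and *Jon25Biii* 3423 and 5704 FPKM against 2873 and 4864 FPKM. In all 3 genes the spread between wild-type replicates was larger than the difference between the genotype means. *Jon25Bii* (1685 and 3130.1 FPKM in wild type, 2604 and 2154 FPKM in tgs12-3) and *Jon65Aiii* (1456 and 2895 FPKM, then 1979 and 2012 FPKM) behaved alike in this respect. *Jon65Ai* lay at 748 and 1201 FPKM in wild type and at 1087 and 1653 FPKM in tgs12-3, with overlap. Within single libraries *Jon99Cii* was above *Jon66Ci*, *Jon25Biii* above *Jon25Bii*, and *Jon25Bii* above *Jon65Aiii* in 4 of 4 libraries. The order between these was less steady: *Jon66Ci* was above *Jon65Aiv* in 2 of 4 libraries, *Jon65Aiv* above *Jon99Ciii* in 3 of 4, and *Jon99Ciii* above *Jon25Biii* in 2 of 4.

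The replicates of one genotype differed in the members more than in genes at large. On the log2(FPKM + 1) scale the SD between replicates had a median of 0.53 over the 33 members tested and 0.24 over all 9545 genes tested. Wild-type replicate 2 was above replicate 1 in 30 of the 33 members, against 62.9% of all genes, and tgs12-3 replicate 2 was above replicate 1 in 27 of them, against 54.6% of all genes. The median log2 difference of replicate 2 from replicate 1 was 0.79 in wild type and 0.63 in tgs12-3 over the members, and 0.15 and 0.04 over all genes. Of the enterocyte markers 7 of 7 were higher in replicate 2 than in replicate 1 in wild type, and 1 of 7 in tgs12-3. The largest gap was in *thetaTry*, a trypsin gene, with 36.8 and 188 FPKM in the wild-type replicates. The part of library composition, stage or feeding in these gaps was not tested.

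The first comparison asked which digestive enzyme genes differed between tgs12-3 and wild-type larvae. Values were compared on log2(FPKM + 1) with limma over the genes whose mean reached 1 FPKM, which left out only *Mal-A7* of the members (0.0259 to 0.307 FPKM). To be called, a gene needed an adjusted p (Benjamini-Hochberg) under 0.05 together with a log2 change of 1 or more in size. Of the 33 members 0 were called, as were 0% of all genes tested, and the smallest adjusted p of a member was 0.40. At an unadjusted limma p under 0.05 there were 5 members lower and 2 higher, while 0.775% of all genes were lower and 7.0% higher at that limit. With 2 libraries against 2, an exact permutation test cannot give a two-sided p under 0.333. Nothing in the labels says that replicates came from separate cultures, so the p-values measure the spread between these libraries, which may be technical.

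Both tgs12-3 values lay below both wild-type values in 6 of the 33 members, where 4.46% of all genes did so, and above them in 2 members, where 43.1% of all genes did so. With a log2 change of 1 or more in size as well, 4 members were below and 2 above, against 0.555% and 1.83% of all genes. The 4 include the amylase pair and the 2 are the *Jon99F* pair, close copies whose reads may be shared. The median log2 change was -0.04 over the members and 0.25 over all genes tested. Median-of-ratios scaling moved these medians to -0.32 and 0.01, so values of single genes below are best read against the median of all genes. With the library wild-type replicate 1 left out the median of the members was -0.61, and with wild-type replicate 2 left out it was 0.21, so its sign rests on which wild-type library is used. The count of 6 became 20 without wild-type replicate 1, 14 without tgs12-3 replicate 2 and 10 under median-of-ratios scaling. In these settings 18.2%, 12.6% and 14.2% of all genes were below, so the share of all genes rose as well. The count of 2 became 16 without wild-type replicate 2, 10 without tgs12-3 replicate 1 and 5 without tgs12-3 replicate 2. There 68.9%, 58.5% and 56.3% of all genes were above. Under median-of-ratios scaling the count of 2 stayed, while the share of all genes above fell from 43.1% to 17.5%. The larval shares of all genes given here and below thus depend on the scaling, and the contrast with the members is smaller after it.

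The amylase genes had lower values in both tgs12-3 libraries. *Amy-p* (FBgn0000079) had 737 and 1217 FPKM in wild-type replicates 1 and 2 and 284 and 515 FPKM in tgs12-3 replicates 1 and 2. Both mutant values were below both wild-type values, with means of 977 ± 339 FPKM and 399 ± 163 FPKM (SD, n = 2 each). The log2 change was -1.31 (SE 0.41, limma adjusted p = 0.57), and it stayed between -1.74 and -0.88 when single libraries were left out. *Amy-d* (FBgn0000078) showed the same order without overlap, with 279.7 and 502 FPKM against 116 and 212 FPKM (log2 change -1.25, SE 0.44, limma adjusted p = 0.57). The ratio of *Amy-p* to *Amy-d* was 2.64, 2.42, 2.44 and 2.43 in the 4 libraries in that order. As the sharing of reads between these close copies is unknown, this steady ratio cannot show that each gene changed by itself.

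Taken as a share within each library, which no scaling between libraries can change, the summed amylases were 4.31% and 4.18% of the summed *Jon* genes in wild type and 1.31% and 1.72% in tgs12-3. The gap between genotypes in this share was wider than the gap between replicates, although the replicates differed widely in the level of both families.

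Of the *Mal-A* genes, which encode maltases, 6 of the 7 tested had a log2 change below 0, against 19.8% of all genes, and 0 were called. *Mal-A1* had 3.68 and 13.2 FPKM in wild type against 1.59 and 2.45 FPKM in tgs12-3, the only one of the family without overlap (log2 change -1.45, SE 0.56, limma adjusted p = 0.57). *Mal-A6* had 4.45 and 22.6 FPKM in wild type against 1.56 and 5.76 FPKM in tgs12-3, with overlap (log2 change -1.45, SE 0.83, limma adjusted p = 0.58). Without single libraries its log2 change ran from -2.51 to -0.39, and that of *Mal-A1* from -2.25 to -0.65. The most abundant of the family, *Mal-A3*, had 83.1 and 231 FPKM in wild type against 69.3 and 133 FPKM in tgs12-3, with overlap between genotypes. *Mal-A8* was near the lower limit of the test in all libraries, at 0.885 to 3.30 FPKM.

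Among the trypsin genes with larval values *betaTry* was the only one without overlap. It had 171 and 208 FPKM in wild type against 92.9 and 98.4 FPKM in tgs12-3, with both mutant values below both wild-type values (log2 change -0.97, SE 0.23, limma adjusted p = 0.57, and -1.11 to -0.83 without single libraries). The most abundant of the trypsin genes with larval values, *epsilonTry*, had 881 and 2269.6 FPKM in wild type against 1158 and 2412 FPKM in tgs12-3. Its gap between replicates was far larger than that between genotypes. *zetaTry* was the steadiest, at 165 and 166 FPKM in wild type against 203 and 165 FPKM in tgs12-3. The remaining 5 trypsin genes had log2 changes from -0.77 (*lambdaTry*) to 0.13 (*thetaTry*), all with overlap. *CG30031* and *CG30025*, close copies within the same array that the symbol rule does not take and that were picked after their values were seen, had 716 and 1588 FPKM and 520.0 and 1052 FPKM in wild type against 913 and 1025 FPKM and 616 and 655 FPKM in tgs12-3.

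*Jon44E* (FBgn0001285), a protease gene on 2R from 8691448 to 8692844, had the largest log2 change of the members. It was at 308 and 474 FPKM in wild-type replicates 1 and 2 and at 65.9 and 109 FPKM in tgs12-3 replicates 1 and 2, means of 391 ± 117 and 87.3 ± 30.2 FPKM (SD, n = 2 each). The highest tgs12-3 value was below the lowest wild-type value. Its log2 change was -2.16 (SE 0.36, limma adjusted p = 0.40) and ran from -2.52 to -1.81 when single libraries were left out. Set against *Jon99Cii* in the same library, *Jon44E* had 6.61 and 6.28 FPKM for every 100 FPKM in wild type against 1.0 and 1.14 in tgs12-3. The gene *CG8586* overlaps it in the annotation, and whether reads were counted by strand is not given in the sources used here.

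The *Jon99F* pair had higher values in tgs12-3. *Jon99Fi* had 540.5 and 459 FPKM in wild type against 831 and 1469 FPKM in tgs12-3 (log2 change 1.15, SE 0.34, limma adjusted p = 0.57). *Jon99Fii* had 575 and 578 FPKM in wild type against 991 and 1468 FPKM in tgs12-3 (log2 change 1.06, SE 0.27, limma adjusted p = 0.57). In both genes both tgs12-3 values were above both wild-type values. With single libraries left out their lowest log2 changes were 0.74 and 0.78. Relative to the summed *Jon99C* genes the pair was at 14.9% and 8.48% in wild type and at 17.0% and 18.3% in tgs12-3, so this share did not overlap either, but the distance between the genotypes was smaller than that between the wild-type replicates. The next largest positive log2 changes were those of *Jon99Ciii* (0.56) and *Jon65Ai* (0.50), both with overlap, and *Jon25Bi* was the remaining gene with both tgs12-3 values below wild type (443 and 599.5 FPKM against 357 and 404 FPKM, log2 change -0.44).

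**Figure D2:**
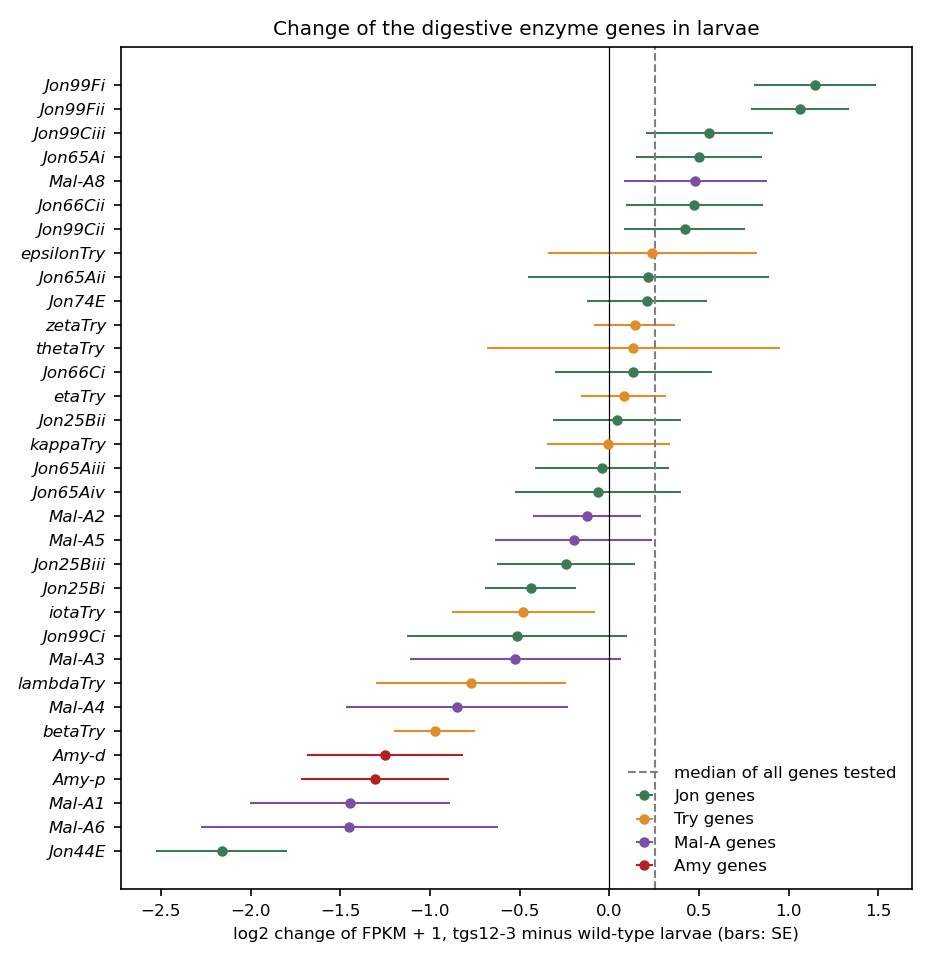
Log2 change of FPKM + 1 between tgs12-3 and wild-type larvae (2 libraries each) for the 33 members tested, with bars for the standard error from limma and colours for the gene families. The dashed line is the median of all genes tested (0.25); *Jon44E*, *Mal-A6*, *Mal-A1*, *Amy-p* and *Amy-d* lie at -1.25 or lower, *Jon99Fi* and *Jon99Fii* above 1, and no gene passed the adjusted p limit.

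**Figure D3:**
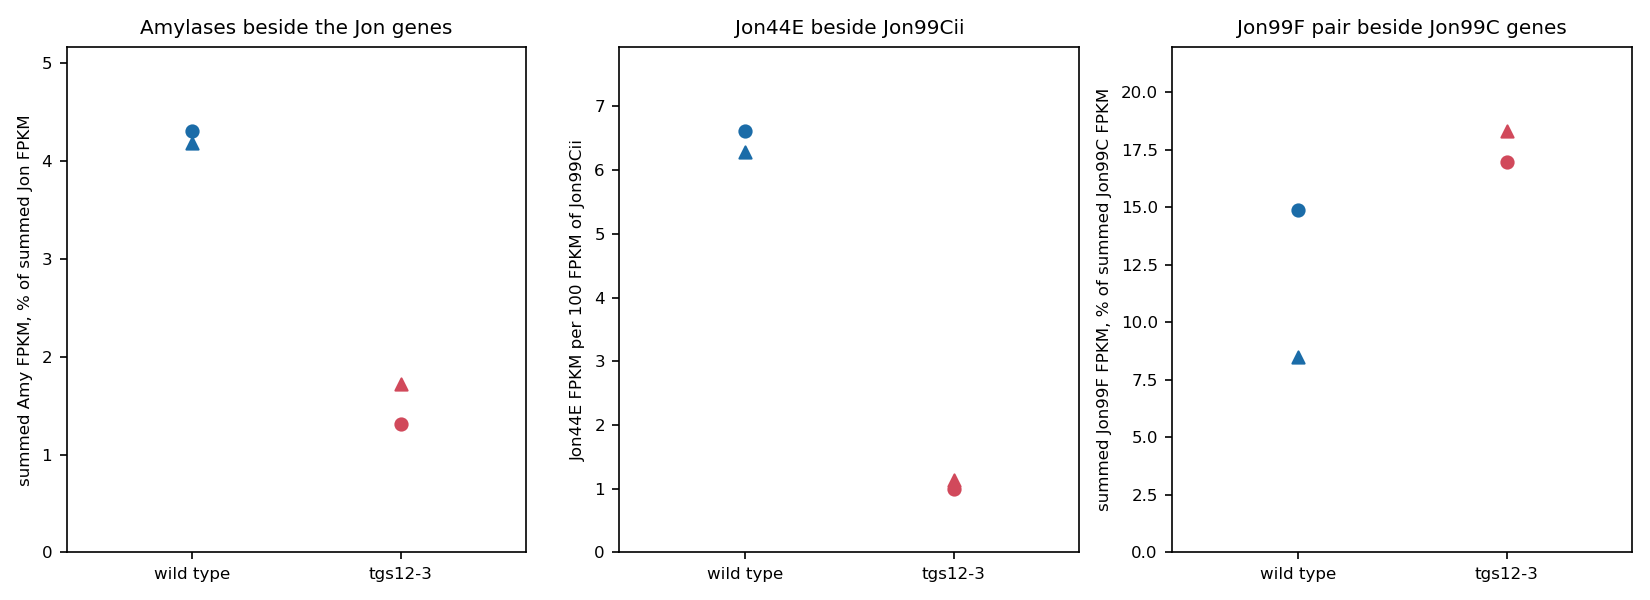
Levels within single larval libraries: summed amylases as a percentage of summed *Jon* genes, *Jon44E* per 100 FPKM of *Jon99Cii*, and the summed *Jon99F* pair as a percentage of the summed *Jon99C* genes. Each point is a library (blue wild type, red tgs12-3, circle replicate 1, triangle replicate 2) and all axes start at 0; the wild-type libraries lie at 4.31% and 4.18% in the amylase panel and the tgs12-3 libraries at 1.31% and 1.72%.

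Other digestive genes were taken from lists of gene names. Of 12 tested enzymes outside the symbol rule, 0 were called, 3 had both tgs12-3 values below wild type (4.46% of all genes) and 1, the protease gene *cathD*, had both above (43.1% of all genes; 77.4 and 71.1 FPKM against 96.0 and 92.4 FPKM). The 3 were *Amyrel*, an amylase-related gene, at 7.68 and 11.5 FPKM in wild type against 1.78 and 2.49 FPKM in tgs12-3 (log2 change -1.74, limma adjusted p = 0.36), *tobi*, an alpha-glucosidase gene regulated by insulin and glucagon-like signalling, at 25.5 and 27.2 FPKM against 6.81 and 10.5 FPKM (log2 change -1.53, limma adjusted p = 0.44), and *mag*, a gut lipase gene, at 43.6 and 77.6 FPKM against 13.5 and 36.3 FPKM (log2 change -1.35, limma adjusted p = 0.57). The median of the list was -0.21. The protease gene *yip7*, the highest of the list ahead of *LManVI*, had 1525 and 3568 FPKM in wild type against 1866 and 1763 FPKM in tgs12-3, with overlap. Of 4 tested lysozyme genes *LysP* was lower without overlap (15.03 and 13.3 FPKM against 3.27 and 5.07 FPKM, log2 change -1.57, limma adjusted p = 0.37), and *LysS* and *LysD*, the most abundant, overlapped between genotypes.

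Among 11 regulators of digestive enzyme genes, of which *Smox* and *bigmax* were the most abundant, 0 were called and the median log2 change was 0.12. *sug*, a sugar-induced transcription factor, had 12.6 and 30.3 FPKM in wild type against 21.2 and 24.5 FPKM in tgs12-3, within the range of wild type. *daw*, a TGF-beta ligand, was above wild type in both tgs12-3 libraries, at 13.9 and 9.33 FPKM against 5.92 and 8.92 FPKM (log2 change 0.58, limma adjusted p = 0.57). *babo* and *Mondo* were also above wild type in both, while *Smox* and *InR* were below it. Of the 11 regulators 3 were thus above, against 43.1% of all genes, and 2 below, against 4.46% of all genes. The 7 enterocyte markers, led by *Tsp2A* and *Ssk*, had a median log2 change of 0.08 with 0 calls, and the 6 markers of midgut progenitor and hormone cells, led by *Dh31* and *NPF*, one of 0.18 with 0 calls. The larval values of *mex1* were 71.0 and 83.6 FPKM in wild type against 76.5 and 64.3 FPKM in tgs12-3. Of the 7 enterocyte markers 6 overlapped between genotypes. The other, *nub*, was higher in both tgs12-3 libraries, as were 43.1% of all genes, at 3.60 and 2.55 FPKM against 2.44 and 2.47 FPKM. The part of gut cell number in the values of *Jon44E* and the amylases was not tested.

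In testes most of the digestive enzyme genes were at or near background. Of 36 genes, 31 had a mean under 1 FPKM over the 4 libraries, and 27 stayed under 1 FPKM in every library. The spacing of the lowest values in the table puts 1 fragment at about 0.060 to 0.066 FPKM for a transcript of 1 kb, so values of these 31 genes rest on few fragments: by that estimate, at most 32 and with a median of 3.2 for a gene and library. Of their 124 values, 24 were listed at 0. *Jon99Cii*, the most abundant member in larvae, had 0.869 and 1.31 FPKM in wild-type testes and 0.873 and 0.146 FPKM in tgs1hypo testes. *Jon99Ciii* was between 0.300 and 0.706 FPKM, and *alphaTry*, the highest trypsin gene in testes, between 0.425 and 1.61 FPKM.

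The amylase genes were the exception. *Amy-p* had 73.3 and 72.9 FPKM in wild-type testes and 43.8 and 69.3 FPKM in tgs1hypo testes, and *Amy-d* 42.5 and 42.0 FPKM and 23.5 and 36.1 FPKM. The amylases thus held 84.5% to 88.9% of the summed members in each testis library, where the *Jon* genes held 2.43% to 4.79%. In larvae the order was the reverse, with amylases at 1.22% to 3.88% of the members. The ratio of *Amy-p* to *Amy-d* was 1.73 and 1.74 in wild-type testes and 1.86 and 1.92 in tgs1hypo testes, below its lowest value of 2.42 in larvae. The larval and testis tables were scaled apart, so levels of the tissues are only set side by side, while shares and ratios within a library do not depend on that scaling. Such ratios can still depend on gene models and on how reads of close copies were shared. Both may differ between the tables, and their part in the *Amy-p* to *Amy-d* ratio was not tested.

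**Figure D4:**
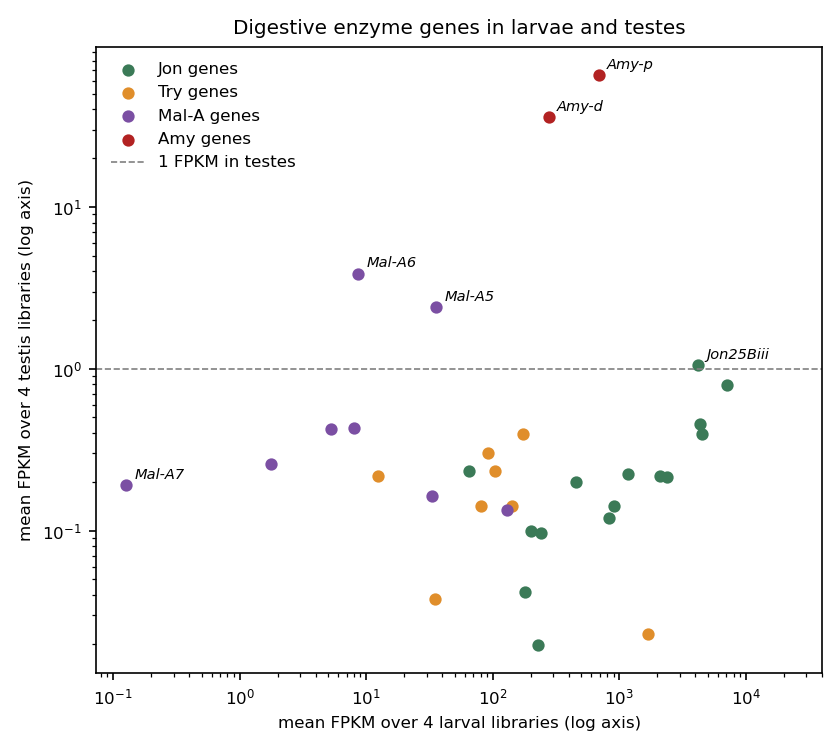
Mean FPKM over the 4 larval libraries (horizontal, log axis) and over the 4 testis libraries (vertical, log axis) for the 33 members with values in both tables, which were scaled apart. Points are genes coloured by family and the dashed line is 1 FPKM in testes; *Amy-p* and *Amy-d* lie at 64.8 and 36.0 FPKM in testes, while *Jon99Cii*, with a mean of 7090.3 FPKM in larvae, lies below the line.

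The second comparison was between tgs1hypo and wild-type testes. In testes 5 members passed the filter, *Amy-p*, *Amy-d*, *Mal-A5*, *Mal-A6* and *Jon25Biii*, and limma called 0 of them, where 10.6% of all 11343 genes tested were called (402 higher and 806 lower, or 282 and 970 with median-of-ratios scaling). These calls are 3.54% of the genes for higher and 7.11% for lower. At an unadjusted p under 0.05 there were 3 lower and 0 higher, against 25.2% and 37.5% of all genes. All 5 had a log2 change below 0, as did 42.3% of all genes, and 4 of the 5 had both tgs1hypo values below both wild-type values, as did 32.6% of all genes, while 0 had both above, as did 47.7% of all genes. With a log2 change of 1 or more in size as well, 0 members were below or above, against 7.12% and 3.55% of all genes. The median log2 change was -0.46 over the 5 and 0.11 over all genes. *Jon25Biii* passed the filter only through its wild-type values, so it had to be lower in tgs1hypo, and counts that hold it are no support. Among the other 4, 3 had both tgs1hypo values below wild type and the median was -0.43.

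By the adjusted p alone 3 of the 5 were lower, or 2 of the 4 without *Jon25Biii*, against 23.4% of all genes. *Jon25Biii* had 1.502 and 1.77 FPKM in wild type against 0.555 and 0.408 FPKM in tgs1hypo (log2 change -0.83, SE 0.17, limma adjusted p = 0.0053), with no overlap. Its values correspond to about 20.1 and 22.2 fragments in wild type and 7.41 and 5.59 in tgs1hypo. With a pseudocount of 0.1 its log2 change was -1.59, past both limits. *Mal-A6* had 4.39 and 4.88 FPKM against 3.06 and 3.14 FPKM (log2 change -0.46, SE 0.14, limma adjusted p = 0.026), also without overlap.

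For *Amy-d* the log2 difference was -0.52 (SE 0.18, limma adjusted p = 0.041) and *Amy-p* one of -0.40 (SE 0.19, limma adjusted p = 0.11). Both rest mainly on tgs1hypo replicate 1, since without it the changes were -0.22 and -0.08. *Mal-A5*, with 2.63 and 2.31 FPKM in wild type against 1.97 and 2.65 FPKM in tgs1hypo, overlapped between genotypes (log2 change -0.08, limma adjusted p = 0.72), and its sign turned without tgs1hypo replicate 1.

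Markers of other tissues were also present in the testis libraries, and those of accessory gland and muscle moved with genotype. The 4 accessory gland genes with values, led by *Acp53Ea* and *Acp36DE*, added up to 1830.1 and 1575 FPKM in wild type and to 1040 and 1109 FPKM in tgs1hypo. All 4 had lower values in both mutant libraries, as did 32.6% of all genes, with 0 called. All 5 muscle genes also had lower values in both mutant libraries. Of these *Act57B* (log2 change -1.04, limma adjusted p = 0.00017) and *TpnC73F* (log2 change -1.11, limma adjusted p = 0.0017) were called lower. Over all genes 7.11% were called lower. The 7 enterocyte markers added up to 47.8 and 46.5 FPKM in wild type against 42.7 and 31.5 FPKM in tgs1hypo. Single markers did not all go that way. Of 6 tested, 3 were lower in both tgs1hypo libraries and 1, *nub*, higher, against 32.6% and 47.7% of all genes. Their median log2 change was -0.16. *GATAe*, the transcription factor that defines the midgut, was at 0.179 to 0.309 FPKM in all 4 libraries. The part of tissue attached to the testes in the amylase values was not tested. No *Jon* gene was above 1.77 FPKM in any testis library.

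Of the genes listed as other digestive enzymes 9 were tested in testes, with the protease genes *Cp1* and *cathD* the most abundant of that list. *Ser8*, a serine protease gene, was called higher (1.80 and 0.997 FPKM in wild type, 8.24 and 8.71 FPKM in tgs1hypo, log2 change 2.001, SE 0.19, limma adjusted p = 0.00021) and the maltase gene *Mal-B1* lower (5.06 and 4.65 FPKM against 1.61 and 1.87 FPKM, log2 change -1.10, SE 0.15, limma adjusted p = 0.00087). *LysD*, a lysozyme gene, was at 36.8 and 35.1 FPKM in wild type against 20.6 and 18.4 FPKM in tgs1hypo (log2 change -0.85, limma adjusted p = 0.0003), under the limit on the log2 change. Of 11 regulators 0 were called. Beside these lists, 3.54% of all genes were called higher and 7.11% lower. Of 3 tested midgut progenitor and hormone cell markers *esg*, a transcription factor gene also used by stem cells of the testis, was called lower (3.59 and 3.32 FPKM against 1.13 and 1.06 FPKM, log2 change -1.09, limma adjusted p = 0.00098), but not with quantile normalization (-0.96).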

How the data were processed

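The authors mapped filtered reads with HISAT2 to the FlyBase genome dmel_r6.16 and deposited FPKM values per gene and library. For expression the authors used featureCounts and DESeq2, and the tool behind the FPKM values is not given in the sources used here. The tables hold no counts, so total depth is unknown, and fragment numbers in the text are estimates from the spacing of low FPKM values. Of 16902 larval entries 1167 have no FlyBase identifier and were left out. Larval start and end positions matched the Ensembl release 115 annotation (BDGP6.54) for 99.2% of genes and testis positions, whose starts are lower by 1, for 60.0%. Positions in the text are from that annotation.

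Each tissue was fitted apart with limma 3.58.1 in R 4.3.3 (eBayes with the mean-variance trend, genotype as the only term) on log2(FPKM + 1), over genes whose mean reached 1 FPKM, with Benjamini-Hochberg adjustment over all of them. Scripts used Python 3.11.15 with pandas 2.3.3. The method was also run on simulated data, whose outcome is not given here and lends no support to the calls. The study's count test needs counts and was not used. In larvae the members named were the 15 with the highest mean, the 4 largest rises and falls, and those without overlap between genotypes at an absolute log2 change of at least 1. In testes they were called members and the 8 with the highest mean. The larval values of *Jon99Ci*, *zetaTry*, *betaTry*, *thetaTry*, *lambdaTry*, *Mal-A3*, *Mal-A7* and *Mal-A8* fall outside this rule and were added after their values were seen. From the other lists called genes and the 2 highest were to be named, and others were added after their values were seen. The lists were other digestive enzymes, lysozymes, peritrophic matrix proteins, regulators, and markers of enterocytes, midgut progenitor and hormone cells, fat body, muscle, cuticle, salivary glands, germline and accessory gland. The members and lists were chosen with earlier results of these data known. Alternatives tried were no filter on low values, a pseudocount of 0.1, median-of-ratios scaling, quantile normalization, rescaling outside the mitochondrial genome to a sum of 1000000, no trend, the replicate block, the adjusted p alone and each library left out.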

Additional observations from a re-analysis of the deposited data

How the results depend on the processing

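Limma called 0 members in larvae under each alternative tried. Over all genes the larval calls ranged from 0 to 7 higher with single libraries left out, the 7 coming without tgs12-3 replicate 1. The number of larval members with both tgs12-3 values below wild type was 10 with median-of-ratios scaling, against 14.2% of all genes. With single libraries left out it was 6 to 20, against 9.80% to 18.2% of all genes. The number above was then 3 to 16, against 56.2% to 68.9% of all genes. The median log2 change of the larval members ran from -0.61 to 0.21 with single libraries left out. In testes the adjusted p alone gave 3893 genes higher and 2655 lower, and 3 members lower, and a pseudocount of 0.1 called 1 member lower, *Jon25Biii*. With no filter on low values 36 testis members were tested. Of these 9 had both mutant values below wild type and 2 above, against 30.2% and 40.9% of all genes. With the filter and single libraries left out 0 to 1 members were above, against 51.8% to 55.4% of all genes. The median log2 change of the testis members was -0.53 with a pseudocount of 0.1, -0.090 with no filter and -0.54 with median-of-ratios scaling, and -0.47 to -0.22 with single libraries left out. In testes *Mal-A5* turned to 0.042 with quantile normalization and to 0.072 without tgs1hypo replicate 1. Of 289 values of 23 named genes under the alternatives, 287 kept their direction, and 282 also kept their side of the limits. Much of this tally was fixed in advance. Leaving out the trend, adding a replicate block or using the adjusted p alone cannot change a log2 change. The main fit called 0 larval genes, and many larval genes were named for their large changes, so the tally is no measure of robustness. A group reduced to a single library takes its spread from the other group.

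The replicate numbers are shared by the groups, but nothing in the labels says that a number marks a shared day or batch. Deviations of same-numbered libraries correlated at 0.13 across genes in testes and at -0.17 in larvae. With the replicate number as a block, testes gave 403 genes higher and 812 lower and larvae 0 of each. Crossing the numbers in larvae, chosen after that correlation was seen, gave 1 gene higher and 0 lower. No counts stand behind the FPKM values, so counting error limits low values by an unknown amount.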

Other observations

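The peritrophic matrix, the chitin and protein sheath that lines the midgut lumen, is the structure through which these enzymes pass. Of 9 genes for its proteins 6 were tested in larvae and 0 were called, with a median log2 change of -0.11. *Peritrophin-15a* had 4135 and 2389.9 FPKM in wild-type replicates 1 and 2 and 3304 and 2594 FPKM in tgs12-3 replicates 1 and 2. In this gene the replicate order was opposite to that of most digestive enzyme genes, with replicate 1 the higher in both genotypes. The mucin gene *Muc55B* had 39.1 and 199.6 FPKM in wild type against 22.6 and 31.3 FPKM in tgs12-3 (log2 change -1.70, SE 0.78, limma adjusted p = 0.57), with both mutant values below wild type and a spread between the wild-type replicates that exceeded the gap between genotypes. *LysD*, a midgut lysozyme gene, had 661 and 19.2 FPKM in wild-type larvae and 301 and 492 FPKM in tgs12-3 larvae, and its log2 change ran from -0.78 to 4.26 as single libraries were left out. In testes 1 gene of the peritrophic list was tested, *Peritrophin-15b*, with a log2 change of -0.74 and no call.

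The larval cuticle genes *Lcp2*, *Lcp3* and *Lcp4* had a median log2 change of 1.06 with 0 calls, and their summed level was 150 and 742 FPKM in wild type against 313 and 858 FPKM in tgs12-3, higher in replicate 2 of both genotypes. The most abundant were *Lcp4* and *Lcp3*. The 4 muscle genes, led by *Mlc2* and *up*, had a median of 0.22 and the male germline genes, of which 2 were tested in larvae, one of -0.48, with 0 calls in either list. In testes the 6 male germline genes, led by *Mst87F* and *betaTub85D*, had a median log2 change of 0.21 with 0 calls, where 10.6% of all genes were called.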
